A study of Mus musculus with 20 samples.

Results

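The 50 mitotic spindle and kinetochore genes described here encode the machinery that compacts, attaches, checks and parts the chromosomes in mitosis. They were chosen by gene symbol, and all 50 were found among the 24062 genes of the RNA-seq table and among the 27998 genes of the scRNA-seq tables. They fall into 7 groups by function: 8 mitotic entry kinases, cyclins and phosphatases, 4 chromosomal passenger proteins, 8 genes of the spindle checkpoint and anaphase-promoting complex, 7 of the centromere and kinetochore, 9 of spindle assembly and microtubule motors, 7 of the central spindle and cytokinesis, and 7 of condensin and the mitotic chromosome.

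The study profiled mouse neural stem cells (NSCs) in culture and in the brain. Cultured NSCs were infected with a lentivirus carrying a scrambled shRNA (Ctrl) or an shRNA against Setd8 (Setd8 KD), went through puromycin selection in both groups, and were collected 3 days after infection for RNA-seq. Setd8 is the enzyme that places the H4K20me1 mark on histone H4. The labels name the hippocampus as the tissue, whereas the methods describe a long-passaged line from the embryonic cortex for the culture work and adult hippocampal lines for other experiments. In the brain, cells with the Nestin-EGFP transgene, whose green reporter marks NSCs and is carried into their progeny, were sorted from the dentate gyrus of C57BL/6 mice at postnatal day 5 (P5), 12 weeks (12w) and 24 weeks (24w), with 1 scRNA-seq and 1 scATAC-seq library at each age.

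Entry into mitosis is driven by Cdk1 with the B-type cyclins and by the kinases Plk1 and Aurora A (Aurka). Condensin and topoisomerase II (Top2a) compact the chromosomes, kinetochores built on the centromere histone Cenpa catch the microtubules, and the checkpoint kinases Bub1 and Ttk hold back Cdc20 until every kinetochore is attached, after which the anaphase-promoting complex marks securin (Pttg1) and cyclin B1 (Ccnb1) for destruction. Most of these genes are transcribed in G2 and mitosis, through promoters with CCAAT boxes and a cell cycle genes homology region (CHR). In the adult dentate gyrus most NSCs are quiescent, whereas the neural progenitor cells (NPCs) they give rise to divide.

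The promoters were read first, since the choice of genes did not use them. RefSeq promoter windows on GRCm38.p6, the build of the deposited files, run from 250 bases before to 50 bases after a gene's start, and 42 of the 50 members had a window. Ccna2, Cdc25c, Aurkb, Incenp, Spc24, Tpx2, Kif20a and Smc4 had no entry. The CHR letters TTTGAA, on either strand, were found in 30 of the 42 members (71.4%), against 20.2% of the 27025 genes with a window and 13.6% of the 9378 of them tested in the cultured NSCs. The letters CCAAT, on either strand, were found in 31 members (73.8%), against 41.1% of all genes with a window and 43.2% of the tested ones, and 22 members (52.4%) had at least 2 copies, against 13.3% and 16.8%. Both sets of letters stood in 26 members (61.9%), against 7.97% and 5.66%. E2F letters, TTCGCGC or TTGGCGC on either strand, were found in 7 members (16.7%), against 4.47% of all genes with a window and 8.54% of the tested ones. The E2F letters can overlap CCAAT, as they do in Ccnb1. These are counts of letters over the whole window, not of bound sites. A part of the 30 members had the CHR letters only at or after the start.

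The 120 bases before the start of 6 members are printed. Cdk1, Cdc20, Top2a and Ube2c show the CHR and CCAAT letters, and Nuf2 and Ncaph, the members with the second-largest and the smallest log2 difference after Setd8 KD, show stretches without them. Capitals mark the CHR letters and the CCAAT boxes on either strand. The stretches lie directly upstream of the annotated start, at chr10:69352913-69353032 (minus strand) for Cdk1, chr4:118437344-118437463 (minus) for Cdc20, chr11:99024190-99024309 (minus) for Top2a, chr2:164769809-164769928 (plus) for Ube2c, chr1:169531465-169531584 (minus) for Nuf2 and chr2:127133955-127134074 (minus) for Ncaph.
Cdk1: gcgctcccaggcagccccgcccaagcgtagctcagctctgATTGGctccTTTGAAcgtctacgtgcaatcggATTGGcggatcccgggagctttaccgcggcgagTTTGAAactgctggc
Cdc20: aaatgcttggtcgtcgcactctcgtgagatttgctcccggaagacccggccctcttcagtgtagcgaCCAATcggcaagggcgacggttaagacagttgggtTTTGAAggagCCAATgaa
Top2a: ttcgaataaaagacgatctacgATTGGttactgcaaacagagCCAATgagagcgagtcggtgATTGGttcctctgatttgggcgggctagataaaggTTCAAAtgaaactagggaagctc
Ube2c: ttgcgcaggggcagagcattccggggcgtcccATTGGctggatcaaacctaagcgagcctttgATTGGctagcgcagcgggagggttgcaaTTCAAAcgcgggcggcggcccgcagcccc
Nuf2: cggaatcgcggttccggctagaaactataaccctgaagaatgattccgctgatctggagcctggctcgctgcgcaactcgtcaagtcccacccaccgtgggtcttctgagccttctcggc
Ncaph: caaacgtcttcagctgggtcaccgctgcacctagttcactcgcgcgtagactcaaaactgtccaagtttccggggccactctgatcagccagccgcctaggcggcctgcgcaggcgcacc
In Cdk1 the CHR letters began 71 and 15 bases before the start, and CCAAT letters 80 and 48 bases before it. In Cdc20 the CHR letters began 18 bases before the start, between CCAAT copies at 53 and 8 bases. In Top2a and Ube2c the CHR letters nearest to the start began 23 and 29 bases before it. By scATAC-seq, 41 of the 42 members (97.6%), all but Kif2c, had a called peak over a promoter window at each of the 3 ages. Of the tested genes, 96.1% to 96.5% had one, so that the members' share was near this background. The Kif2c stretch, at chr4:117178773-117179022, lay inside the annotated gene (chr4:117159639-117182639, minus strand) and not at its outer end.

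In the culture, RNA of all 50 members was lower in the Setd8 KD library than in every Ctrl library, and the levels were on median about 2-fold apart. The files of 4 RNA-seq libraries hold TPM, a transcript abundance scaled for gene length and library total, and their titles go against their content. For 170 of 170 genes, the values of the libraries labelled Ctrl_3, Setd8KD_1 and Setd8KD_2 were those of Ctrl columns in the study's own gene table, and the values of the library labelled Setd8KD_3 were those of a Setd8 KD column. Setd8 itself stood at 154, 143 and 143 TPM in the first 3 libraries and at 36.4 TPM in the library labelled Setd8KD_3 (log2 difference −1.98, SE 0.07). The comparison was therefore 3 Ctrl libraries, named Ctrl here, against 1 Setd8 KD library, and every direction given for the knockdown rests on this reading. With the libraries grouped by their titles, limma called none of the 50 members at an adjusted p under 0.05, none had an unadjusted p under 0.05, edgeR and DESeq2 were not run on that grouping, and the median log2 difference was −0.32. Between 20040076 and 21493347 reads per library were recovered from the TPM. Nothing states that the libraries came from separate cultures, so the p-values measure the spread between these libraries, and the single Setd8 KD library was assumed to vary like the Ctrl libraries.

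Of the 12703 genes with a mean of at least 1 TPM, limma on log2(TPM + 1) called 21.7% lower and 20% higher at an adjusted p under 0.05. All 50 members were called lower and 0 higher, with adjusted p from 0.000113 to 0.00846 and SE from 0.05 to 0.20. With no filter on low values limma called 34, with adjusted p up to 0.143, and lost Cdc25b, Cks2, Incenp, Bub3, Cenpe, Cenpf, Spc25, Ckap5, Kif20b, Kif23, Kif4, Smc2, Smc4, Ncapd2, Ncaph and Mki67. DESeq2 lost Cks2 (adjusted p = 0.142), and edgeR kept all 50. On the log2(TPM + 1) scale, a difference of at least 1.5-fold was found in 47 members, against 8.19% of the genes tested. One of at least 2-fold was found in 26 members, against 2.38%. All 50 lay below every Ctrl library, as did 40.8% of the genes tested. The median log2 difference of the members was −1.01, while that of all genes tested was 0.001. Summed over the members, the level was 5613, 5783 and 5651 TPM in the Ctrl libraries (5682 ± 89.3, SD, n = 3) and 2884 TPM in the Setd8 KD library, 50.7% of the Ctrl mean. Between the Ctrl libraries, a member's log2 values spanned 0.11 on median, and 0.43 at most, in Cks2. In bulk RNA, fewer dividing cells and less RNA per dividing cell cannot be told apart.

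**Figure D1:**
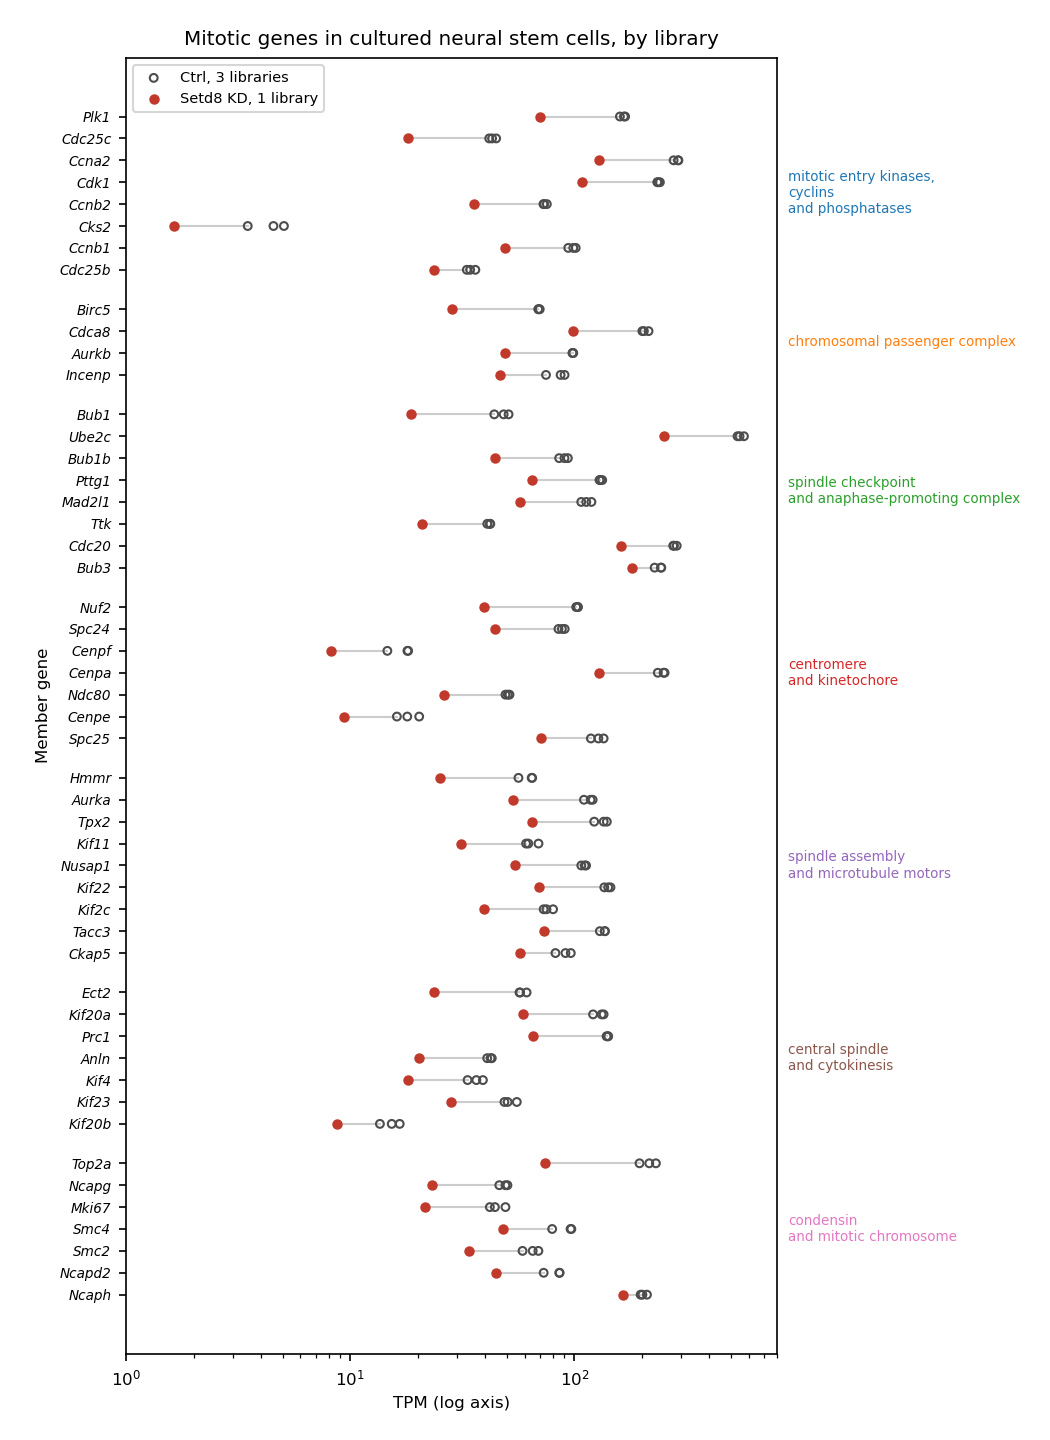
TPM of the members in each of the 4 RNA-seq libraries, arranged by functional group, with the TPM axis on a log scale. Each point is 1 library, and for all 50 members the Setd8 KD point lies below the 3 Ctrl points.

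Among the 8 genes of mitotic entry, whose summed level in the Setd8 KD library was 46.3% of the Ctrl mean, the median log2 difference was −1.07. Plk1, the Polo kinase of centrosome maturation and mitotic entry, stood at 159, 166 and 168 TPM in the Ctrl libraries and at 70.0 TPM in the Setd8 KD library (log2 difference −1.22, SE 0.06, limma adjusted p = 0.000113). Cdk1, the kinase that drives mitosis, stood at 234, 236 and 240.3 TPM and at 109 TPM (−1.12, SE 0.05). The Setd8 KD values of both lay far outside the narrow range of the Ctrl libraries. Cdc25b, a phosphatase that activates Cdk1, had the smallest difference of this group, with 36.1, 34.3 and 33.1 TPM against 23.7 TPM (−0.52, SE 0.08, limma adjusted p = 0.00327). Cks2, a small Cdk-binding protein, was the member with the lowest level, at 5.06, 3.49 and 4.55 TPM in Ctrl and 1.63 TPM in the Setd8 KD library, where it rested on 10 reads.

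The 4 genes of the chromosomal passenger complex, which corrects faulty attachments through the kinase Aurora B, had a median log2 difference of −1.03 and a summed level of 48.5% of Ctrl. Birc5 (survivin), which targets the complex to the centromere, stood at 69.1, 69.0 and 70.0 TPM in Ctrl and at 28.6 TPM in the Setd8 KD library (−1.25, SE 0.06). Incenp, its scaffold, spread more widely in Ctrl, at 74.6, 86.7 and 90.3 TPM, with 46.4 TPM in the Setd8 KD library (−0.84, SE 0.11). The groups did not overlap in either gene.

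In the checkpoint and anaphase-promoting complex group, the summed level was 53.5% of Ctrl and the median log2 difference −0.98. Bub1, a kinase that recruits checkpoint proteins to kinetochores, stood at 48.3, 50.8 and 43.9 TPM in Ctrl and at 18.6 TPM in the Setd8 KD library (−1.31, SE 0.10). Bub3, which carries Bub1 and BubR1 to the kinetochore, differed less, at 228, 243 and 244 TPM against 179.6 TPM (−0.40, SE 0.06). Its Setd8 KD value was still below all 3 Ctrl values, but it was one of the 3 members under 1.5-fold.

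All 7 centromere and kinetochore genes differed by at least 1.5-fold, and their summed level was 50.4% of Ctrl. Nuf2, a subunit of the Ndc80 complex that holds the microtubule end, stood at 102, 104 and 103 TPM in Ctrl and at 39.6 TPM in the Setd8 KD library (−1.36, SE 0.06). Spc25, of the same complex, stood at 128, 135 and 118 TPM and at 71.0 TPM (−0.83, SE 0.08). Members of 1 complex thus covered the group's range of differences, from −1.36 to −0.83.

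All 9 spindle assembly genes and all 7 central spindle genes also differed by at least 1.5-fold, with summed levels of 50.5% and 47.2% of Ctrl. Hmmr, a spindle pole protein, stood at 64.8, 64.4 and 56.2 TPM in Ctrl and at 25.2 TPM in the Setd8 KD library (−1.26, SE 0.10). Ckap5, a microtubule polymerase also used outside mitosis, stood at 82.3, 96.3 and 91.1 TPM and at 57.3 TPM (−0.64, SE 0.09). The Ctrl libraries differed from each other by less than the distance to the Setd8 KD library in both. Ect2, the exchange factor that activates RhoA at the cleavage furrow, stood at 57.2, 61.2 and 56.8 TPM and at 23.5 TPM (−1.27, SE 0.07). Kif20b, a kinesin of cytokinesis with the lowest level of its group, stood at 15.3, 16.6 and 13.6 TPM and at 8.70 TPM (−0.73, SE 0.13).

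The condensin and mitotic chromosome group held both the largest and the smallest difference of all members, and its summed level was 55.0% of Ctrl. Top2a stood at 195, 231 and 216 TPM in Ctrl and at 73.7 TPM in the Setd8 KD library (−1.52, SE 0.09). Ncaph, the kleisin subunit of condensin I, stood at 197, 210.4 and 201 TPM and at 165 TPM (−0.29, SE 0.06, limma adjusted p = 0.00846). Mki67, which coats mitotic chromosomes and is the common marker of cycling cells, stood at 41.9, 49.2 and 44.2 TPM and at 21.6 TPM (−1.02, SE 0.10). Ncaph shares its complex with Ncapd2 and Ncapg, whose log2 differences were −0.85 and −1.03.

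**Figure D2:**
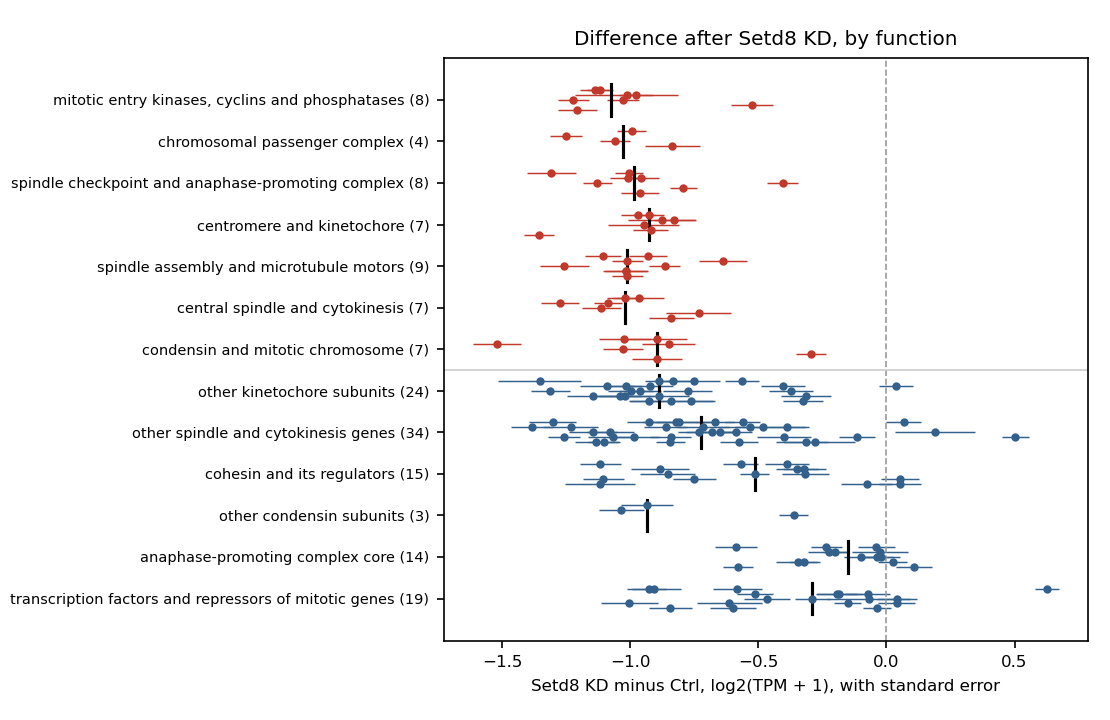
Log2 difference, Setd8 KD minus Ctrl, on the log2(TPM + 1) scale for each gene, with horizontal bars for the standard error and vertical black bars for list medians, for the 7 functional groups of members (red) and 6 other lists of mitotic genes (blue). All 50 members lie below 0, between −1.52 (Top2a) and −0.29 (Ncaph), with group medians between −1.07 and −0.90.

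The promoter letters did not sort the members by size of difference. The 30 members with CHR letters had a median log2 difference of −1.01 and the 12 without them −0.99. With CCAAT the median was −1.01 over 31 members and without it −0.96 over 11. Nuf2, whose printed stretch has neither, had the second-largest difference of the 50 on the log2(TPM + 1) scale.

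Genes of the same machinery outside the 50 were read from lists that were made with earlier results known. Over all genes tested, 21.7% were lower and 20% higher. Of 24 other kinetochore subunits, 23 were lower and 0 higher, with a median log2 difference of −0.89. The largest differences were in Casc5 (−1.35), the scaffold that binds Bub1, and in Mis12 (−1.31). Of 34 other spindle and cytokinesis genes, 28 were lower and 1 higher, with a median of −0.72. Kif15 (−1.38), Ska1 (−1.30) and Ckap2l (−1.26) led this list, and Psrc1 was the gene that was higher, at 162, 159 and 156 TPM in Ctrl and 225 TPM in the Setd8 KD library. All 3 further condensin subunits were lower (Ncapg2 −1.04, Ncapd3 −0.93, Ncaph2 −0.36).

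Of 15 genes of cohesin and its regulators, 12 were lower and 0 higher, with a median of −0.51. The mitotic regulators Sgol2, Cdca5 and Sgol1, which protect or lock cohesin, led the list at −1.12, −1.12 and −1.11. Of 14 core subunits and enzymes of the anaphase-promoting complex, 6 were lower and 0 higher, against 21.7% and 20% of all genes tested. This list had a median of −0.15 and the largest differences in Anapc1 (−0.59), Cdc23 (−0.58) and Ube2s (−0.34). Among 19 transcription factors and repressors of mitotic genes, 10 were lower and 1 higher, against the same 21.7% and 20% of genes. Foxm1, an activator of G2 and M genes, stood at 56.8, 58.5 and 56.2 TPM in Ctrl and at 29.6 TPM in the Setd8 KD library. Mybl2 (B-Myb) stood at 14.8, 15.6 and 15.7 TPM and at 9.92 TPM. Lin54, the subunit that reads the CHR, and Rbl1, a repressor in DREAM, differed by −1.0 and −0.91 on the log2 scale. Cdkn1a (p21), the inhibitor of cyclin-dependent kinases, was the one that was higher, at 955, 951 and 933 TPM in Ctrl and 1461 TPM in the Setd8 KD library.

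Marker lists of the culture had median log2 differences from −0.17 (NSC) to 0.30 (neuronal). Over all genes tested, 21.7% were called lower and 20% higher. Of 7 NSC markers tested, Nes, Fabp7 and Pax6 were lower (−0.52, −0.29 and −0.67) and Msi1 was higher (0.61), and their list summed to 11980 to 12130 TPM in Ctrl and 10420 TPM in the Setd8 KD library. Of 5 neuronal markers tested, 2 were lower and 3 higher, with sums of 1120 to 1169 TPM and 1240 TPM. Their log2 differences ran from −0.53 to 0.73. None of the 6 astrocyte and 4 oligodendrocyte markers tested was called by limma, with sums of 112 to 122 and 117 TPM for the former and of 2379 to 2555 and 2369 TPM for the latter. All 8 microglial and vascular markers were under 1 TPM in every library. Their part in the members' difference was not tested.

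In the dentate gyrus, the question was how the members stand in progenitors across ages. Cells were clustered with the members and the other mitotic lists left out of the variable genes, and classes were named from fixed markers (NSC-like, NPC-like, immature neurons as IMN1-like and IMN2-like, astrocytes as AS-like, and oligodendrocyte precursors as OPC-like). The P5 library held 12752 cells, the 12w library 5271 and the 24w library 2794, and the median UMIs per cell were 4261, 2271 and 2178. The P5 table lists barcodes of at least 1495 UMIs, 6.81%, 1.5% and 0.107% of cells were taken out as doublets, and 160, 123 and 88 barcodes also occurred in another library. With 1 library per age, no test between ages is possible, and each interval is an exact 95% interval for counting error only. By Xist and Y-linked RNA, the processing took the 12w library as female and the 24w library as male, and split the P5 cells by sex. Age and sex therefore cannot be told apart between the 12w and 24w libraries. The ratios to P5 below pool P5 cells of both sexes, so a difference in sex can enter them. Ratios to P5 cells of the same sex are not reported here.

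The members were most abundant in the NPC-like cells at every age. The markers that name this class include Hmgb2, Pcna, Rrm2 and Mcm6, so its high member level is a description of cycling cells and not a test. Cells that stop cycling can leave the class. Its ratios and counts across ages therefore cannot show whether progenitors keep dividing. The class held 1166 of 12752 cells at P5, 230 of 5271 at 12w and 44 of 2794 at 24w. At P5, the members' summed level in the 1166 NPC-like cells was 8898 UMIs scaled to a common library total (CPM, 8836 to 8959). In 230 cells of the 12w library it was 8595 CPM (8454 to 8738), or 0.966 times (0.949 to 0.983) the P5 level. In 44 cells of the 24w library it was 9207 CPM (8881 to 9541), or 1.03 times (0.997 to 1.07) the P5 level. With doublets kept, the ratio at 12w was 1.05, and after scaling to the median gene the ratio at 24w was 0.919, so that neither direction holds under every setting. The IMN2-like cells, later immature neurons that should lack these genes, had 799, 499 and 425 CPM. Cluster 9 held 512 of their 1215 cells at P5, 69 of 533 at 12w and 16 of 78 at 24w. Its marker score for IMN2 (1.15) was nearly tied with that for IMN1 (1.13). Over all ages its member level was 974 CPM, against 609 CPM in cluster 2, the largest cluster of this class. OPC-like cells, which divide in the young brain, had 2628, 1056 and 2157 CPM at the 3 ages, from 2444, 36 and 11 cells.

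**Figure D3:**
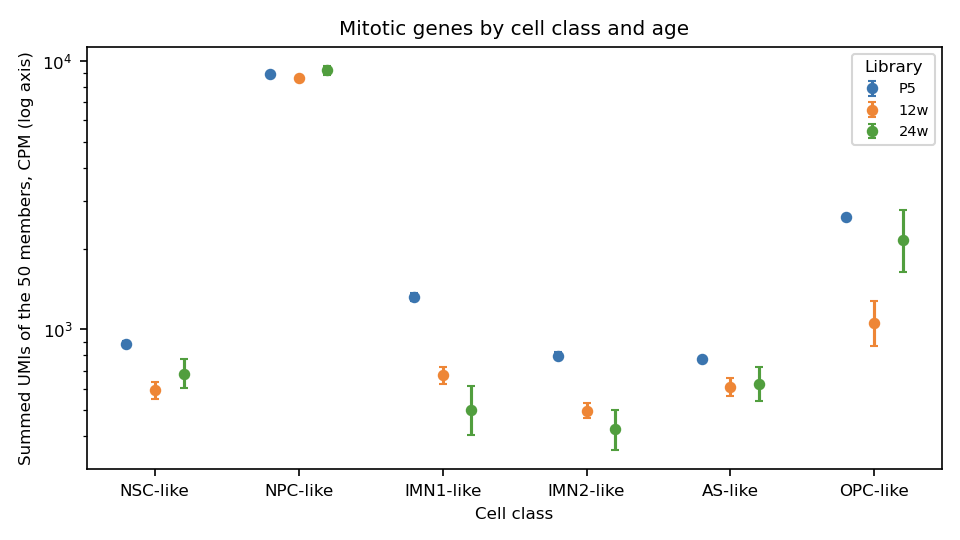
Summed level of the 50 members in CPM, on a log axis, by cell class and age, with exact Poisson 95% intervals for counting error. The NPC-like cells lie between 8595 and 9207 CPM at the 3 ages, above every other class.

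In NPC-like cells all 50 members reached the minimum of 20 UMIs, 0 were lower by at least 1.5-fold at both 12w and 24w (8.37% of the 11932 genes compared were), and 3 were higher (15.9% of genes were). With doublets kept 5 were higher, and after scaling to the median gene 1 was. The 3 were Ndc80, the kinetochore subunit that grips the microtubule, Kif20a, a kinesin of the central spindle, and Ect2. Ndc80 stood, in order of age here and below, at 32.3, 53.0 and 79.3 CPM, from 293, 87 and 26 UMIs. Kif20a stood at 51.8, 82.2 and 119 CPM, which was 1.59 times (1.30 to 1.93) and 2.30 times (1.61 to 3.19) its P5 level. Ect2 stood at 32.6, 59.1 and 82.3 CPM, or 1.81 times (1.43 to 2.29) and 2.53 times (1.64 to 3.75). At both adult ages 23 members were above and 14 below P5, and 45.9% and 27.1% of all genes compared were.

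By function, the central spindle genes stood at 432, 482 and 625 CPM, or 1.12 times (1.03 to 1.2) the P5 level at 12w and 1.45 times (1.25 to 1.67) at 24w. The spindle assembly genes stood at 1.16 and 1.12 times. The other 5 groups lay between 0.891 and 1.05 times. The median gene compared in NPC-like cells was itself above P5, by 0.142 at 12w and 0.171 at 24w on the log2 scale. The spindle assembly ratios, and the central spindle ratio at 12w, lay near this background. The ratios of the other 5 groups lay below it. Kif23, the kinesin of centralspindlin, stood at 60.1, 76.7 and 113 CPM, while Prc1, which bundles the central spindle, stood at 192, 178 and 198 CPM. Tpx2, the activator of Aurora A, stood at 189, 223 and 244 CPM, and Nusap1, a microtubule bundler, at 192, 240 and 174 CPM.

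Of the most abundant members, Cks2 stood at 777, 660 and 671 CPM and Ccnb1 at 289, 326 and 278 CPM. Birc5 stood at 384, 329 and 329 CPM, and Cdca8 (borealin) at 329, 286 and 308 CPM. Ube2c, the enzyme that starts ubiquitin chains for the anaphase-promoting complex, stood at 736, 577 and 625 CPM, and Bub3 at 320, 337 and 314 CPM. These values lay within 1.5-fold of P5 at both ages. Cenpa stood at 527, 450 and 503 CPM, whereas Cenpf, a large outer kinetochore protein, stood at 351, 263 and 204 CPM, 0.749 times (0.676 to 0.828) and 0.582 times (0.450 to 0.741) its P5 level. Top2a stood at 388, 316 and 406 CPM, Smc4, a condensin ATPase, at 259, 314 and 278 CPM, and Mki67 at 167, 102 and 125 CPM.

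**Figure D4:**
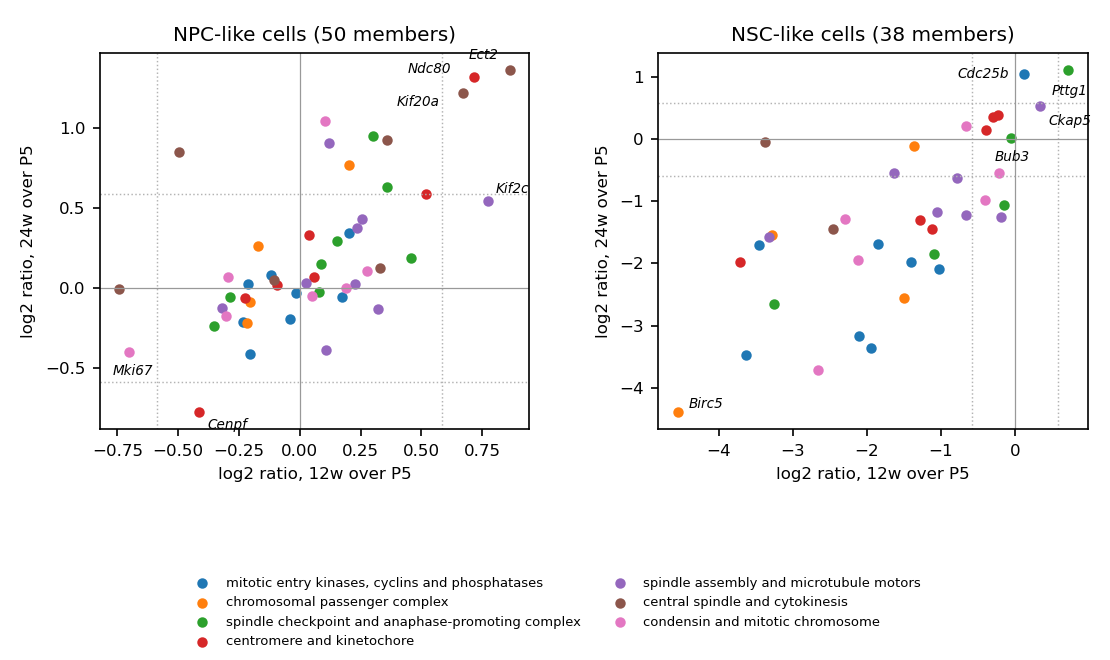
Log2 ratio to P5 of each member's level at 12w (horizontal) and at 24w (vertical) in NPC-like and in NSC-like cells, with axis ranges that differ between the panels, colours for functional groups and dotted lines at 1.5-fold. In NPC-like cells the members scatter around 0, and in NSC-like cells Birc5 lies lowest and Pttg1 highest at 12w among the 38 plotted, of which 31 reached 20 UMIs only with P5.

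The NPC-like class was made of 2 clusters whose shares differed between ages. Cluster 6, led by S-phase genes such as Cdc6 and Cdt1, held 59.1%, 74.3% and 65.9% of its cells, with member levels of 4644, 3954 and 4380 CPM. Cluster 10, led by Pif1, Tuba1c, Cdc20, Ccnb1 and Hmmr, held 40.9% (38.1 to 43.8), 25.7% (20.1 to 31.8) and 34.1% (20.5 to 49.9), with 14054, 20112 and 18813 CPM. Within cluster 10 the members thus stood at 1.43 and 1.34 times the P5 level, and within cluster 6 at 0.851 and 0.943 times. Markers of other classes moved along in both. Of the NPC list, the proliferation-associated Hmgb2 stood over all ages at 3741 CPM in cluster 10 and 1684 CPM in cluster 6. Eomes and Neurog2, also in this list, stood at 106 and 106 CPM in cluster 10 and at 204 and 296 CPM in cluster 6. In cluster 10 this list was thus largely a measure of cycling cells. In cluster 10 the AS list summed to 1625, 337 and 356 CPM, the OPC list to 669, 12.7 and 45.6 CPM and the NPC list to 4597, 8498 and 7815 CPM. In cluster 6 the AS list summed to 778, 536 and 549.8 CPM, the OPC list to 828, 35 and 36.7 CPM and the NPC list to 3823, 5414 and 5576 CPM. Their part in the ratios was not tested.

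When each cell was thinned to 1000 UMIs, at least 5 member UMIs were found in 56.8% (53.9 to 59.6), 45.2% (38.7 to 51.9) and 61.4% (45.5 to 75.6) of NPC-like cells from the youngest to the oldest library. In NSC-like cells the same share was 0.852%, 0.290% and 0.943%, from 12, 1 and 1 cells. At least 1 member UMI was found in 91.9%, 77.4% and 81.8% of thinned NPC-like cells, in 58.2%, 47.0% and 51.9% of NSC-like cells and in 56.4%, 40.2% and 33.3% of IMN2-like cells. Without thinning, these shares were 99.6%, 98.3% and 100% in NPC-like, 95.1%, 85.5% and 91.5% in NSC-like and 92.3%, 82.6% and 74.4% in IMN2-like cells, whose median depths were 7363, 6841 and 7184, 4087, 3447 and 3385, and 3377, 3713 and 4231 UMIs. At P5 the thinned share of NSC-like cells with any member UMI lay close to that of the class that should lack these genes. Without thinning, 29.5% of NSC-like and 18.8% of IMN2-like cells at P5 had 5 or more member UMIs. What these UMIs come from was not tested at P5.

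**Figure D5:**
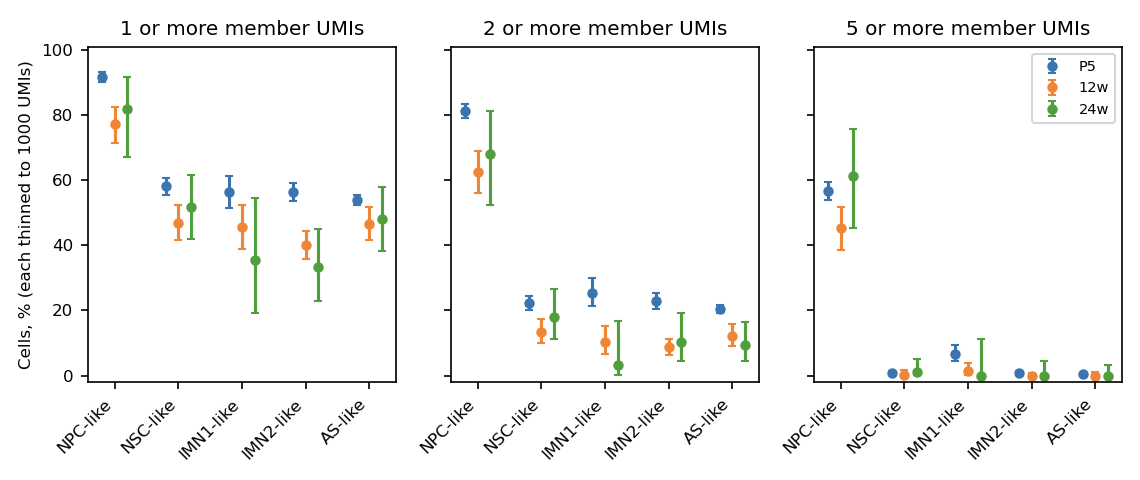
Percent of cells with member UMIs after thinning to 1000 UMIs per cell, by class and age, with exact binomial 95% intervals. At 5 or more member UMIs, NPC-like cells lie between 45.2% and 61.4% and NSC-like cells between 0.290% and 0.943%. The NSC-like values at 12w and 24w are 1 cell each.

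In NSC-like cells the summed level at P5 was 883 CPM (860 to 908), over 1408 cells. In the 12w library it was 595 CPM (553 to 639), over 345 cells, and in the 24w library 685 CPM (604 to 774), over 106 cells. The ratios to P5 were 0.673 (0.623 to 0.726) and 0.776 (0.682 to 0.879). The class was made of 3 clusters, of which cluster 3 held 56.3%, 65.5% and 74.5% of its cells, cluster 8 34.7%, 32.8% and 24.5%, and cluster 13, with the highest member level at P5 (1752 CPM), 8.95%, 1.74% and 0.943%. Within cluster 3 the ratios were 0.713 (0.646 to 0.786) and 0.854 (0.735 to 0.988), and within cluster 8 they were 0.682 (0.598 to 0.776) and 0.714 (0.547 to 0.918). Cluster 13, whose marker score for NSCs (0.846) was nearly tied with that for choroid plexus (0.844), had a ratio of 0.407 (0.194 to 0.755) from 6 cells at 12w and 0 member UMIs in its 1 cell at 24w. At P5 its AS list summed to 2376 CPM and its NSC list to 1780 CPM. Marker lists moved along in the other clusters. In cluster 3 the NSC list summed to 2466, 4503 and 3623 CPM, below the AS list at 4553, 5049 and 5476 CPM, and the OPC list to 538, 52.6 and 84.4 CPM. In cluster 8 the NSC list summed to 2933, 5868 and 4430 CPM, the AS list to 1841, 2880 and 3030 CPM and the OPC list to 394, 30.6 and 19.3 CPM. Their part in the ratios was not tested. The level in IMN2-like cells, whose cluster shares also differed between ages, went the same way, at 0.624 (0.581 to 0.670) and 0.532 (0.444 to 0.631). That in AS-like cells stood at 0.789 and 0.811. Counts of members by the 1.5-fold rule are not evidence of a fall outside the NPC-like cells, because the minimum of 20 UMIs was reached largely through P5, the deepest library. Of the 38 members that passed it in NSC-like cells, 31 did so only with the P5 UMIs, as did 25 of 37 in IMN2-like and 42 of 49 in AS-like cells, whereas all 50 passed on 12w and 24w alone in NPC-like cells. With that limit, 23 of the 38 were lower in NSC-like cells (11% of genes were) and 1 was higher (18.5%). After thinning to 1000 UMIs per cell, 10 were lower. The minimum was then applied to the thinned counts, so this count may be out of fewer than 38. The share of all genes after thinning is not given here. In IMN2-like cells 21 were lower (7.61% of genes) and 0 higher (15.4%), and in AS-like cells 18 were lower (11.9%) and 2, Cdc25b and Pttg1, were higher (20.2%). RNA free in the suspension was predicted to give 29.0% and 20.8% of the NSC-like member level at 12w and 24w, 28.9% and 33.8% of the IMN2-like level, and 1.80% and 1.61% of the NPC-like level. It could not be estimated at P5, where no low barcodes are listed.

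By function, the mitotic entry genes stood in NSC-like cells at 134, 35.4 and 26.5 CPM, or 0.265 and 0.198 times P5, and the chromosomal passenger genes at 61.5, 7.09 and 10.6 CPM. At 12w and 24w the entry genes rested on 45 and 10 UMIs and the passenger genes on 9 and 4 UMIs. The checkpoint group, which holds Pttg1 and Bub3, stood at 285, 299 and 347 CPM, and the spindle assembly group, which holds Ckap5, at 142, 128 and 140 CPM. The centromere and kinetochore group stood at 0.443 and 0.604 times P5, the central spindle group at 0.309 and 0.52 times and the condensin group at 0.546 and 0.656 times. The same order of the entry and checkpoint groups was seen in AS-like and IMN2-like cells. Entry genes stood at 0.434 and 0.318 times and checkpoint genes at 1.2 and 1.16 times in AS-like cells. In IMN2-like cells the values were 0.314 and 0.219 against 0.784 and 0.912 times. In NPC-like cells they lay close, at 0.947 and 0.957 against 0.946 and 1.01 times. Differences between groups were not tested. By single genes, Cdk1 stood at 15.6, 5.51 and 2.65 CPM, from 93, 7 and 1 UMIs. Birc5 stood at 27.6 and 0.787 CPM at P5 and 12w and Top2a at 17.2 and 2.36 CPM, and both had 0 UMIs at 24w, where 3 UMIs would be 7.94 CPM. The NSC-like cells held 5972202, 1269860 and 377999 UMIs in all. Pttg1 was the member that was higher, at 104, 172 and 225 CPM, or 1.65 times (1.40 to 1.92) and 2.16 times (1.70 to 2.71), while it stood at 77.6, 63.3 and 73.2 CPM in NPC-like cells. With predicted free RNA subtracted at 12w and 24w, 0 members were higher, so that the call of Pttg1 is lost there.

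Pttg1, Bub3 and Ckap5, picked out after their values were seen, gave 34.0%, 64.9% and 66.8% of all member UMIs in NSC-like cells and 26.8%, 41.4% and 56.3% in IMN2-like cells, but 5.31%, 5.36% and 4.94% in NPC-like cells. Without these 3, the other 47 members summed to 583, 209 and 228 CPM in NSC-like cells, to 585, 292 and 186 CPM in IMN2-like cells and to 8425, 8135 and 8752 CPM in NPC-like cells. After Setd8 KD, Bub3 (−0.40) and Ckap5 (−0.64) were among the members with the smallest log2 differences, and Pttg1 (−1.0) was near the members' median. Over the 50 members, the log2 ratio of the NPC-like to the IMN2-like level and the log2 difference after Setd8 KD had a Pearson's r of −0.48 and a Spearman's rho of −0.42, which describes these genes and is no test. The ratio shares its 3 libraries among all 50 points, and the differences share the 4 culture libraries. With the log2 ratio of 12w over P5 in NPC-like cells, the difference had a Pearson's r of −0.07, and with the log2 Ctrl level one of −0.05.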

How the data were processed

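RNA-seq was measured in cultured NSCs, and scRNA-seq and scATAC-seq in sorted dentate gyrus cells. The authors aligned to mm10 (per the submitters' processing notes, with STAR, Cell Ranger 2.2.0 and, for peaks, MACS2) and deposited TPM per gene for 4 RNA-seq libraries, UMI count matrices for scRNA-seq, and peak positions. Gene names and gene lengths came from the deposits of the other RNA-seq samples and were paired with the TPM by row order. The CUT&RUN, ATAC-seq and scATAC-seq matrix files were not analysed here. The RNA-seq libraries were grouped by exact identity (tolerance 0.01%) with group columns of the study's gene table, 3 Ctrl and 1 Setd8 KD. Log2(TPM + 1) was tested with limma 3.58.1 (trend), for genes with mean TPM of at least 1, with Benjamini-Hochberg adjustment over all genes. Whole reads were recovered from the deposited TPM (100% whole within 0.05 below 1000 reads) for edgeR 4.0.16 and DESeq2 1.42.0 as alternatives. On simulated data, limma recovered 95% of 2-fold and 78% of 1.5-fold changes, with 25 false calls among 12213 genes. The simulated Setd8 KD library was made to vary like the Ctrl libraries, so these rates cannot check that assumption.

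Cells needed 1000 UMIs, 500 genes and no more than 10% of UMIs from mitochondrial genes, doublets were removed, and cells were clustered with Seurat 5.3.0 (2000 variable genes, 30 dimensions, resolution 0.8). UMIs were pooled per class and age as CPM. A member was counted as changed at 1.5-fold or more in the same direction at 12w and 24w, given at least 20 UMIs over the ages (0.5 UMI added for the logarithm). On simulated counts this rule recovered 82% of 2-fold higher and 83% of 3-fold lower genes in NPC-like cells, with 444 false calls among 11579 genes. Intervals, the simulated counts and the floor of 3 UMIs cover counting error only. The members and lists were chosen with earlier results of these data known. Named genes were, per functional group, the members with the largest and the smallest difference after knockdown, with Cdk1, Mki67 and Top2a, the 2 most abundant members in NPC-like cells, the 3 largest differences of each other list, and Foxm1, Mybl2 and Cdkn1a. One gene that this rule names is not reported here. Members named beyond this rule were chosen after their values were seen.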

Additional observations from a re-analysis of the deposited data

How the results depend on the processing

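All 50 members stayed called lower, with 0 higher, with a pseudocount of 0.1, with edgeR on recovered reads, after shifting libraries to 1 median, and without each Ctrl library in turn (50 to 50 lower, 0 to 0 higher, medians −1.01 to −0.985). DESeq2 called 49, all but Cks2 (adjusted p = 0.142), and with a fold of at least 1.5 the count was 47. With no filter on low values 34 were called lower, and 1038 genes in all against 2755. Grouping by the titles gave 0 members lower and a median of −0.32. In NPC-like cells the ratio to P5 at 12w was 1.05 with doublets kept, 0.991 with at least 2000 UMIs per cell, 0.876 after scaling to the median gene, 0.949 with free RNA subtracted and 0.930 after thinning, so its direction depends on the treatment of doublets, and at 24w it was 1.11 with doublets kept, 0.919 after median scaling and 1.17 after thinning. The count of members lower in NPC-like cells was 1 with free RNA subtracted and 2 after thinning, and that of members higher was 5 with doublets kept, 1 after median scaling, 5 after thinning and 0 with a fold of 2. In NSC-like cells the ratios were 0.515 and 0.635 with free RNA subtracted, the count of members lower was 10 after thinning, and the count higher was 3 with at least 2000 UMIs per cell, 0 with free RNA subtracted, 2 after thinning and 0 with a fold of 2. Free RNA was subtracted from the UMIs of genes at 12w and 24w alone, since it could not be estimated at P5, and the class totals were kept. As run, this setting can only lower the ratios to P5. In NPC-like cells free RNA was predicted to give 8.78% and 11.5% of all UMIs, but 1.80% and 1.61% of the member level. Reducing the totals too, which was not run, would raise the NPC-like ratios. The other causes were not tested. No paired analysis was possible because the Setd8 KD group holds 1 library. With 44 NPC-like cells at 24w, counting error limits single members there.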
